A study of Mus musculus with 55 samples.

Results

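Brown fat from mice given corticosterone was compared with brown fat from mice given placebo, all kept at 22 °C. The comparison was set by the sample labels: the 8 libraries are the 5 labelled iBAT, GC and RT and the 3 labelled iBAT, Ctrl and RT, out of 55 in the whole series. All came from male C57BL/6NRj mice, 10 weeks old when treatment began, as far as the series' design text states it. The mice drank corticosterone, the main glucocorticoid of rodents, in their water, or received placebo, for 4 weeks. No genetic change is named for any group. The series also holds gonadal and subcutaneous white fat and mice kept at 13 °C. RNA was taken from areas of interscapular brown fat cut out by laser capture microdissection, about 2 ng per library, and sequenced by the SMART-Seq2 protocol, so each library measures a small region and not the whole pad. The labels tie no library to a mouse and state no pooling, so the p-values measure the spread between these libraries, which may be partly technical.

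Glucocorticoids enter cells and bind the glucocorticoid receptor, a transcription factor that then activates some genes and represses others. The enzyme encoded by Hsd11b1 regenerates active hormone inside fat cells. Glucocorticoid levels normally follow a daily rhythm and act as a timing signal for the circadian clocks of peripheral tissues, in which the activators CLOCK, NPAS2 and BMAL1 (the product of Arntl) drive their own repressors through E-boxes. Brown fat burns lipid to make heat through the uncoupling protein UCP1, under adrenergic control.

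The promoters of 4 clock genes and 2 chaperone genes that are described below are shown because their sequences hold matches to the elements that clock proteins and heat shock factors are known to bind. Each line gives the 250 bases before the RefSeq start of transcription, 5′ to 3′ on the gene's strand, in build GRCm38.p6. Capitals mark the E-box CACGTG in Ciart and Cry1, the D-box TTATGNAA in Per3, both of these in Per1, and the core of the heat shock element, GAANNTTC, in Hspa1a and Hspb1. The windows lie at chr3:95882229-95882478 on the minus strand (Ciart), chr10:85185055-85185304 on the minus strand (Cry1), chr11:69098699-69098948 on the plus strand (Per1), chr4:151044666-151044915 on the minus strand (Per3), chr17:34972157-34972406 on the minus strand (Hspa1a) and chr5:135887669-135887918 on the plus strand (Hspb1). Per1 has 2 RefSeq windows, and the one shown was picked by its number of matches. It lies inside the gene, which starts at chr11:69095217 in GENCODE M21.
Ciart: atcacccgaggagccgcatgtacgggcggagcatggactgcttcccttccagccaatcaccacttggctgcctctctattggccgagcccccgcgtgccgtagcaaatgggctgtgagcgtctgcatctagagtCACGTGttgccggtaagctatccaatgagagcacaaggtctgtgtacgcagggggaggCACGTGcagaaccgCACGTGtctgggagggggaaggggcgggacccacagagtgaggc
Cry1: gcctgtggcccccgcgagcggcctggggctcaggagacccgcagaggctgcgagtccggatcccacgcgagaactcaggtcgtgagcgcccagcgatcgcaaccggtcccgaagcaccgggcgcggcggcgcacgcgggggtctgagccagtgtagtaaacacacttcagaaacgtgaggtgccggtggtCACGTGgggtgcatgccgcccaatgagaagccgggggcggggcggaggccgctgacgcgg
Per1: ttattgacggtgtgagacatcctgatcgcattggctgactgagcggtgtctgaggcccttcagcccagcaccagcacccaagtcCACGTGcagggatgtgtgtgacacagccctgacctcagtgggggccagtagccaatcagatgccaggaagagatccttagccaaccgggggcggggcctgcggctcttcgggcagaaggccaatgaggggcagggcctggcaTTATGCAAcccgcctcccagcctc
Per3: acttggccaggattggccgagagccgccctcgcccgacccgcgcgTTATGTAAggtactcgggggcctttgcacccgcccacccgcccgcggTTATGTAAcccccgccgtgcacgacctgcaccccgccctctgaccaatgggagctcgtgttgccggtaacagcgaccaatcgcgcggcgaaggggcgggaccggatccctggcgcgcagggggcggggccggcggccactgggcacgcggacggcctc
Hspa1a: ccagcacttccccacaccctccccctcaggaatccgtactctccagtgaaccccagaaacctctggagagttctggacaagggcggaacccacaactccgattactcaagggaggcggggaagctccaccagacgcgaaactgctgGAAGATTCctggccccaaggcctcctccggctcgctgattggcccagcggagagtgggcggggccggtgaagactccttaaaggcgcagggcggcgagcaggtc
Hspb1: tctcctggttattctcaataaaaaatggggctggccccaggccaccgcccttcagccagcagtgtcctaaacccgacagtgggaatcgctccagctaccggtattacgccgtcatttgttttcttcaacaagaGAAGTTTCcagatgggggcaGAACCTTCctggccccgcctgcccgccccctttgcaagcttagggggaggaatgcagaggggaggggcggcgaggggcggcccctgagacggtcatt

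Ciart held 3 E-boxes, beginning 116, 58 and 44 bases before the start, and Per3 held 2 D-boxes, beginning at 205 and 158. Per1 held 1 E-box at 166 and 1 D-box at 24, and Cry1 1 E-box at 60. Hspb1 held 2 heat shock cores, at 117 and 97, and Hspa1a 1, at 104. No match overlapped another. Both strands were searched. Of the 20 genes in the clock lists, 17 had a window, and 5 of these held an E-box (Per1, Cry1, Ciart, Bhlhe41 and Tef), against 6.02% of all 32851 promoter windows. A listed gene was counted if any of its windows held a match, whereas the shares over all are per window. The 2 are thus not on the same footing. A D-box was found in 2 of the 17 and in 3.07% of all windows. The heat shock core was found in 6 of 15 chaperone genes with a window and in 6.69% of all windows. No clock or chaperone window held the palindromic glucocorticoid response element, which 3 of all windows held. A match is a description of these letters and not a measured site.

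The 8 libraries held 18871231 to 35790654 counts each, and 21035 to 23902 genes with at least 1 count. Every library carried brown fat transcripts: Ucp1 lay between 1158 and 13256 CPM (counts scaled to library size, adjusted by trimmed mean of M-values) in all 8, and Cidea between 1749 and 5543 CPM. The placebo libraries differed from one another in composition. Summed over 13 white adipocyte markers, placebo libraries 1 and 2 held 39323 and 33140 CPM and placebo library 3 held 5112, against 4157 to 9094 in the corticosterone libraries. Summed over 15 brown adipocyte markers, placebo library 3 held 36775 CPM, placebo libraries 1 and 2 held 9902 and 6161, and the corticosterone libraries 10402 to 19534. Of the 18 macrophage markers, all 18 were detected and none passed the test described below, which called 0.664% of all genes tested. Their sum was 5684 CPM in corticosterone library 5 against 135 to 642 in the other 7. The 7 erythrocyte markers summed to 5600 to 21377 CPM in the placebo libraries and to 1268 to 6854 in the corticosterone libraries. The 19 skeletal muscle markers, the muscle-defining Acta1 and Ckm among them, summed to 90.5 to 494 CPM with placebo and 51.2 to 259 with corticosterone. No marker of these 5 lists was at 0 in all 8 libraries. In bulk RNA, fewer cells of a type and less RNA per cell cannot be told apart. The part of these differences in the results below was not tested, and the values without the libraries that stand apart are given beside the counts.

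**Figure D1:**
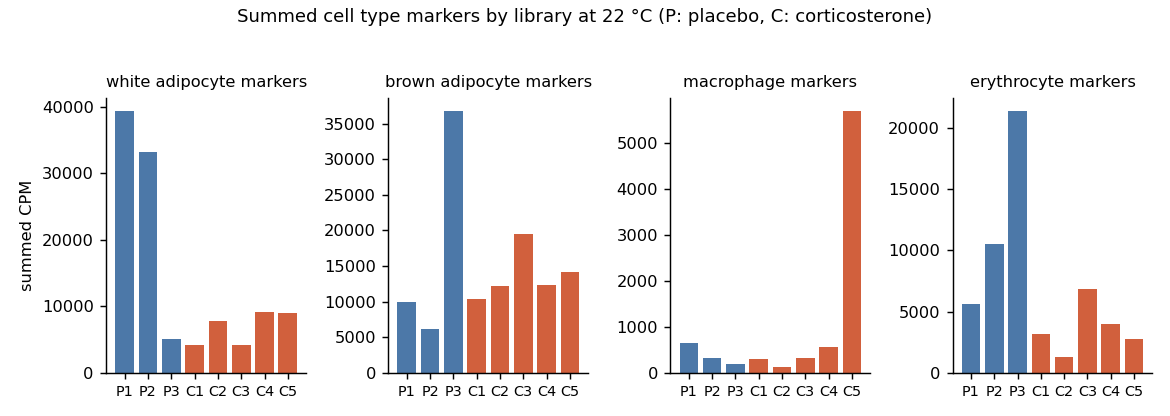
Summed CPM (vertical axes) of 4 cell type marker lists in each of the 8 brown fat libraries at 22 °C, placebo libraries P1 to P3 in blue and corticosterone libraries C1 to C5 in orange. P1 and P2 stand at 39323 and 33140 CPM for white adipocyte markers, P3 at 36775 CPM for brown adipocyte markers, and C5 at 5684 CPM for macrophage markers.

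With corticosterone, several clock repressors and outputs fell, as did the regulators Klf15, Irf4 and Rasd1. The clock activator Arntl, 4 chaperone genes and the detoxifying enzyme Cyp2b10 rose. Of 17163 genes tested with edgeR's quasi-likelihood test, 114 passed a Benjamini-Hochberg adjusted p of 0.05, which is 0.664% of those tested. The calls were 57 higher (0.332%) and 57 lower (0.332%) with corticosterone. Of the genes called higher, 52 are protein-coding, and of those called lower, 56. The size of the called changes had a median of 2.13 on the log2 scale among the genes that rose and 1.99 among those that fell. For all 57 that rose and 52 of the 57 that fell, no library of one group overlapped the other. Over all genes tested, 4.29% lay without overlap above placebo and 3.28% below it, and the median log2 fold change was 0.01. Without placebo libraries 1 and 2 together, which leaves 1 placebo library and takes the spread from the other groups, all 114 kept their direction and 19 of them kept their call (11 higher and 8 lower). Without placebo library 1 and corticosterone library 5 together, again all 114 kept their direction, and 25 kept their call (14 higher and 11 lower).

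Members of the clock's repressor arm fell with corticosterone. Of the 10 clock repressors tested, 4 fell (Per1, Per3, Nr1d2 and Ciart) and 1 rose (Cry1), and the median log2 fold change of the list was -1.15. Over all genes tested, 0.332% were called lower and 0.332% higher. Per1, whose window above was picked by its matches and holds an E-box and a D-box, is also a direct glucocorticoid receptor target. Per1 measured 26.6, 27.2 and 42.9 CPM in the placebo libraries and 3.77, 7.05, 7.56, 8.55 and 10.7 CPM in the corticosterone libraries. Every corticosterone library lay below every placebo library, and the change was -2.09 ± 0.31 SE (adjusted p = 0.00259). Per3 measured 13.8, 13.2 and 21.9 CPM with placebo and 4.24, 5.58, 3.99, 3.92 and 2.79 CPM with corticosterone. Its groups did not overlap either, at -1.99 ± 0.31 SE (adjusted p = 0.00259). Per2, the other period gene, measured 6.67, 7.52 and 6.59 CPM with placebo and 2.84, 1.35, 3.04, 4.3 and 2.89 CPM with corticosterone, again without overlap, but at -1.27 ± 0.50 SE its adjusted p was 0.314.

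Ciart, which encodes a repressor of CLOCK and BMAL1 and holds the 3 E-boxes shown above, measured 10.4, 6.18 and 3.84 CPM with placebo and 0.212, 0.552, 0.746, 1.37 and 0.776 CPM with corticosterone. No corticosterone library reached the lowest placebo library, and the change was -3.22 ± 0.64 SE (adjusted p = 0.0166). Nr1d2, which encodes the nuclear receptor REV-ERB beta, a repressor of Arntl, measured 46.9, 52.1 and 31.9 CPM with placebo and 12.4, 15.6, 5.8, 24.5 and 8.68 CPM with corticosterone. It fell by 1.71 ± 0.35 SE on the log2 scale (adjusted p = 0.0208) without overlap. Its paralog Nr1d1 overlapped between the groups, at -0.72 ± 0.36 SE (adjusted p = 0.47). The calls of Per1 and Per3 held in each of the 8 fits that left out 1 library. That of Ciart was lost without placebo library 1, corticosterone library 1 or corticosterone library 2 (adjusted p from 0.0525 to 0.123), and that of Nr1d2 without placebo library 1 or 2 or corticosterone library 1 (0.0653 to 0.117).

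Cry1, a cryptochrome that represses CLOCK and BMAL1, moved the other way from the period genes. It measured 7, 6.85 and 8.32 CPM in the placebo libraries and 33.6, 111, 41.8, 18 and 39.7 CPM in the corticosterone libraries. The placebo values lay close together, the corticosterone values spread widely with library 2 highest and library 4 lowest, and the groups did not overlap. Cry1 rose by 2.73 ± 0.44 SE (adjusted p = 0.0029), and the call held with each library left out in turn. Its paralog Cry2 measured 0.14 ± 0.35 SE with overlapping groups (adjusted p = 0.928), and its sign turned in 3 of the other fits. The repressor Bhlhe41 was lower without overlap, at 13, 12.7 and 11.9 CPM against 5.04, 6.81, 7.3, 6.05 and 5.67 CPM, but did not pass the test (-1.02 ± 0.32 SE, adjusted p = 0.17). Bhlhe40 overlapped between the groups (1.37 ± 0.53 SE, adjusted p = 0.308).

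The activator Arntl encodes BMAL1, the partner of CLOCK. Arntl measured 2.66, 1.97 and 0.256 CPM with placebo and 17.8, 41.5, 19.2, 7.23 and 20.1 CPM with corticosterone. The lowest corticosterone library stood above the highest placebo library, and Arntl rose by 3.65 ± 0.62 SE (adjusted p = 0.00519), a call kept with any 1 library left out. Npas2, a homolog of CLOCK, measured 0.872, 0.537 and 0 CPM with placebo and 2.71, 8.95, 3.89, 2.32 and 3.83 CPM with corticosterone. Its groups did not overlap, but the test of Npas2 missed the threshold (3.12 ± 0.75 SE, adjusted p = 0.057). Clock itself overlapped between the groups (0.89 ± 0.36 SE, adjusted p = 0.328), as did Rora. Of the 5 clock activators tested, 1 rose, against 0.332% of all genes tested, and 0 fell. The list's median log2 fold change was 0.89.

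Some clock outputs fell as well. Dbp, Tef and Hlf encode activators that bind D-boxes, and Nfil3 encodes a repressor at the same element. Dbp measured 9.24, 17.2 and 14 CPM with placebo and 1.23, 1.1, 0.799, 2.88 and 1.16 CPM with corticosterone, a change of -3.23 ± 0.48 SE (adjusted p = 0.00259). Tef measured 62.7, 51 and 59.1 CPM with placebo and 12.8, 14.2, 18.5, 30.4 and 18.4 CPM with corticosterone, a change of -1.61 ± 0.25 SE (adjusted p = 0.00259). Neither gene overlapped between the groups, and both calls held with each library left out. Hlf (-0.66 ± 0.35 SE, adjusted p = 0.513) and Usp2 (-1.32 ± 0.41 SE, adjusted p = 0.173) did not pass the test, and their groups overlapped. Nfil3 was higher in every corticosterone library, at 58.5, 171, 94.6, 52.8 and 75.3 CPM against 25.5, 7.16 and 41 CPM with placebo, but at 1.88 ± 0.48 SE its adjusted p was 0.0771. The list of 5 outputs had 2 members that fell, 0 that rose and a median of -1.32, which was -0.46 without placebo library 3. Of all genes tested, 0.332% were called lower.

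**Figure D2:**
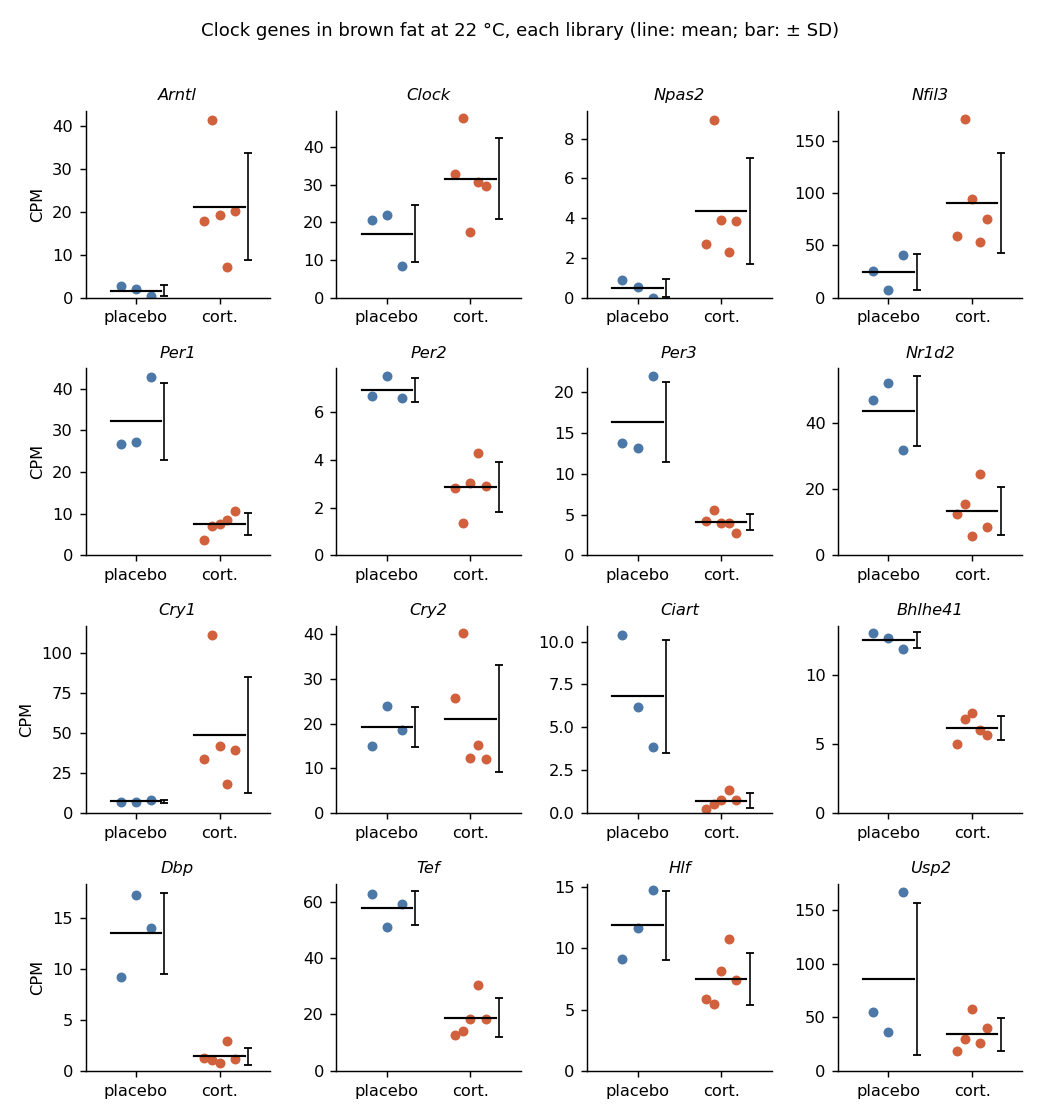
CPM (vertical axes, each from 0) of 16 clock genes in the 3 placebo libraries (blue points) and the 5 corticosterone libraries (orange points, "cort.") of brown fat at 22 °C, with the group mean as a line and ± SD as a bar. Per1, Per3, Ciart, Dbp and Tef lie lower with corticosterone without overlap, and Arntl and Cry1 lie higher without overlap.

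Known targets of the receptor that passed the test all fell. Of the 23 genes in the list of known glucocorticoid receptor targets, 22 passed the filter on low counts, and 0 rose and 4 fell (Per1, Klf15, Nfkbia and Rasd1). Over all genes tested, 0.332% were called higher and 0.332% lower. The list's median log2 fold change was -0.56, and 14 of the 22 were negative. Klf15, a Krüppel-like factor that drives amino acid breakdown, measured 110.1, 63.5 and 57.8 CPM with placebo and 7.29, 11.9, 5.75, 7.09 and 6.62 CPM with corticosterone. All 5 corticosterone libraries lay at or below 11.9 CPM, and Klf15 fell by 3.32 ± 0.40 SE on the log2 scale (adjusted p = 0.000196). Rasd1, a small G protein named for its induction by dexamethasone, measured 135, 80.5 and 362 CPM with placebo and 30.7, 40.5, 26.4, 36.8 and 24.7 CPM with corticosterone. Placebo library 3 was the highest, and Rasd1 fell by 2.60 ± 0.45 SE (adjusted p = 0.00636), or by 1.76 without that library.

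Nfkbia encodes an inhibitor of NF-kappa B that glucocorticoids are known to induce. It measured 182, 124 and 208 CPM with placebo and 39.6, 32.6, 84, 48.1 and 32.3 CPM with corticosterone, without overlap, and fell by 1.86 ± 0.32 SE (adjusted p = 0.00603). The calls of Klf15, Rasd1 and Nfkbia held with each library left out in turn. Fkbp5, a chaperone of the receptor that is also one of its best known targets, did not pass the test. It measured 22.3, 18 and 3.65 CPM with placebo and 34.5, 30, 51.4, 75.6 and 41.3 CPM with corticosterone, without overlap, but at 1.66 ± 0.56 SE its adjusted p was 0.209. Pdk4, a kinase that limits glucose oxidation, was likewise higher in every corticosterone library (1.44 ± 0.37 SE, adjusted p = 0.0796). The alternative tests DESeq2 and limma with weighted libraries called Pdk4 higher (adjusted p = 0.0078 and 0.00362). Klf9 and Tsc22d3 were lower in every corticosterone library, at -1.37 ± 0.33 SE (adjusted p = 0.0573) and -0.56 ± 0.32 SE (adjusted p = 0.544). Sgk1, Zbtb16 and Angptl4 overlapped between the groups and did not pass the test. Nor did the receptor gene Nr3c1, at 90, 81.1 and 29.3 CPM with placebo and 42.6, 59.7, 21.6, 48.5 and 54.1 CPM with corticosterone, or Hsd11b1 (0.88 ± 0.56 SE, adjusted p = 0.608). None of the 9 genes listed as receptors and ligand enzymes passed it in either direction, where 0.664% of all genes tested did.

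Genes of heat shock proteins and their partners were higher with corticosterone. Of the 20 chaperone genes tested, 4 rose, against 0.332% of all genes tested, and 0 fell. The log2 fold change was positive for 19, and 10 lay without overlap above placebo, against 4.29% of all genes. The median was 0.95, and it stayed between 0.77 and 1.36 in every alternative that was run. Hspa1a, the stress-inducible HSP70, measured 8.37, 6.45 and 13.5 CPM with placebo and 349, 405, 226, 108 and 163 CPM with corticosterone. The lowest corticosterone library was 7.97-fold above the highest placebo library, and Hspa1a rose by 4.73 ± 0.59 SE (adjusted p = 0.000293). Its near-identical neighbour Hspa1b shares reads with it, so how the counts divide between the pair is uncertain. Hsph1, a co-chaperone of HSP70, measured 56.8, 42 and 17.3 CPM with placebo and 283, 297, 145, 128 and 176 CPM with corticosterone. It rose by 2.41 ± 0.40 SE (adjusted p = 0.00415) without overlap.

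Hspb1, the small heat shock protein HSP27 whose promoter holds 2 heat shock cores, measured 101, 62.2 and 51.8 CPM with placebo and 395, 359.7, 429.6, 204 and 238 CPM with corticosterone. It rose by 2.18 ± 0.50 SE (adjusted p = 0.0425). Hspa8, the constitutive HSC70, measured 251, 219.7 and 233 CPM with placebo and 519, 530.4, 480.3, 357 and 549.5 CPM with corticosterone, and rose by 1.05 ± 0.23 SE (adjusted p = 0.0322). Neither overlapped between the groups, and corticosterone library 4 was the lowest of its group for all 4 chaperones called. The calls of Hspa1a and Hsph1 held with each library left out. That of Hspb1 was lost without any 1 of the 3 placebo libraries or of corticosterone libraries 1, 2 and 3 (adjusted p from 0.0806 to 0.183). That of Hspa8 was lost without any 1 of the 3 placebo libraries or of corticosterone libraries 1, 2 and 5 (0.0543 to 0.155).

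Thermogenic genes did not pass edgeR's test, which called 0.664% of all genes tested. None of the 17 thermogenic effectors was called in either direction, and their median of -0.43 turned to 0.27 without placebo library 3, the library rich in brown adipocyte markers. Ucp1 measured 3683, 1158 and 13256 CPM with placebo and 2639, 3490.3, 4316, 3167 and 4398 CPM with corticosterone. The placebo libraries spanned the whole range of the corticosterone libraries, and the change of -0.74 ± 0.51 SE (adjusted p = 0.642) turned to 0.58 without placebo library 3. Elovl3, a fatty acid elongase of active brown fat, was lower in every corticosterone library, at 61.8, 67.7, 33.5, 52.6 and 33.2 CPM against 133, 122 and 317 CPM with placebo. Its adjusted p was 0.0537 at -1.94 ± 0.46 SE. The alternative tests DESeq2 and limma with weighted libraries called Elovl3 lower (adjusted p = 0.00543 and 0.0196). Dio2, which makes active thyroid hormone in the cell, and the coactivator Ppargc1a overlapped between the groups, at -0.61 ± 0.52 SE and -0.51 ± 0.44 SE.

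Among brown fat transcription regulators, 1 of 17 tested fell, against 0.332% of all genes tested, and 0 rose. That gene was Irf4, a factor induced by fasting and cold that partners with PGC-1 alpha in brown fat. Irf4 measured 140.3, 68.9 and 103 CPM with placebo and 6.99, 16.8, 2.93, 7.14 and 10.4 CPM with corticosterone. The highest corticosterone library lay 4.11-fold below the lowest placebo library, and Irf4 fell by 3.55 ± 0.60 SE (adjusted p = 0.00519), a call kept with each library left out. Adra1a, the alpha 1A receptor, measured 12.4, 11.2 and 18.8 CPM with placebo and 51.9, 88.7, 31.5, 39.7 and 32.9 CPM with corticosterone, and rose by 1.79 ± 0.35 SE (adjusted p = 0.0141). Its groups did not overlap, and its call was lost without placebo library 1 or 2 (adjusted p 0.126 at most). Adrb3, the main adrenergic receptor of rodent brown fat, overlapped between the groups (1.31 ± 0.48 SE, adjusted p = 0.269). Of the 19 adrenergic and cyclic AMP genes tested, 1 rose, against 0.332% of all genes tested, and that was Adra1a.

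Detoxification and transport genes held some of the largest changes. Cyp2b10, a cytochrome P450 induced through the xenobiotic receptor CAR in liver, measured 13.8, 4.61 and 8.57 CPM with placebo and 235, 249, 138, 291 and 202 CPM with corticosterone. The lowest corticosterone library was 9.98-fold above the highest placebo library, and Cyp2b10 rose by 4.62 ± 0.51 SE (adjusted p = 0.000129), a call kept with each library left out; reads shared with other Cyp2b genes make its counts uncertain. Gstt2, a glutathione transferase, fell by 1.38 ± 0.29 SE without overlap (adjusted p = 0.0225). Ces1f, a carboxylesterase, measured 275, 194 and 24.6 CPM with placebo and 16.3, 18.1, 7.3, 22.5 and 28.3 CPM with corticosterone. It was called lower (-3.15 ± 0.66 SE, adjusted p = 0.0259), but placebo library 3 lay inside the corticosterone range. The call of Gstt2 was lost without placebo library 1 or 2 or corticosterone library 1 (adjusted p 0.139 at most), and that of Ces1f without placebo library 1 or 2 or any 1 of corticosterone libraries 1 to 4 (0.205 at most). Of 12 list members tested, 1 rose and 2 fell, against 0.332% of all genes tested in each direction. The list's median of -0.93 turned to 0.36 without placebo libraries 1 and 2, a fit in which the median over all genes was 0.22.

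Slc5a6, the sodium-dependent carrier of biotin and pantothenate, measured 67.7, 84 and 25.3 CPM with placebo and 10.6, 11.5, 5.43, 13.8 and 7.95 CPM with corticosterone. It fell by 2.58 ± 0.40 SE (adjusted p = 0.00259). Slc19a1, the reduced folate carrier, measured 15.7, 35 and 11.8 CPM with placebo and 96.4, 98.3, 77.9, 73.4 and 71.4 CPM with corticosterone, and rose by 2.00 ± 0.32 SE (adjusted p = 0.0029). The 2 vitamin carriers thus changed in opposite directions, each without overlap and each with a call that held with any 1 library left out. Slc43a1, an amino acid carrier, was also called lower (-3.76 ± 0.85 SE, adjusted p = 0.0425), but placebo library 3 stood at 7.1 CPM against 50.1 and 55.1 in placebo libraries 1 and 2. Its call was lost without any 1 of the libraries other than placebo library 3 (adjusted p 0.181 at most). Of 17 carriers tested, 1 rose and 2 fell, against 0.332% of all genes tested in each direction.

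Metabolic lists held 0 or 1 call each, where 0.664% of all genes tested were called. At that share, no call in so short a list is no result about its members. Foxo1, a transcription factor held in check by insulin signalling, measured 81.4, 60.8 and 42.5 CPM with placebo and 14.5, 13.2, 23.9, 24.7 and 22.7 CPM with corticosterone. Foxo1 fell by 1.64 ± 0.33 SE without overlap (adjusted p = 0.0203) and was the 1 gene called of 20 insulin signalling genes. Bcat2, which starts the breakdown of branched-chain amino acids in mitochondria, measured 394, 299 and 127 CPM with placebo and 115, 122, 134, 102 and 116 CPM with corticosterone. Bcat2 was called lower (-1.22 ± 0.28 SE, adjusted p = 0.0384), with placebo library 3 inside the corticosterone range, and was the 1 gene called of the 22 in its pathway. The call of Foxo1 was lost without placebo library 1 or 2 or corticosterone library 1 or 2 (adjusted p 0.178 at most). That of Bcat2 was lost without any 1 of the libraries other than placebo library 3 (0.378 at most). None was called among 16 triglyceride synthesis, 17 fatty acid synthesis, 16 lipolysis, 21 fatty acid oxidation, 19 cholesterol synthesis, 25 nuclear oxidative phosphorylation and 13 mitochondrially encoded genes. Lipoprotein lipase, encoded by Lpl, was lower in every corticosterone library, but at -1.49 ± 0.36 SE its adjusted p was 0.0573. Fasn overlapped between the groups (0.29 ± 0.30 SE, adjusted p = 0.801). Acaa1b, a peroxisomal thiolase, fell by 2.13 ± 0.42 SE without overlap (adjusted p = 0.0164), a call lost without placebo library 3 or corticosterone library 1 (0.0605 at most).

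**Figure D3:**
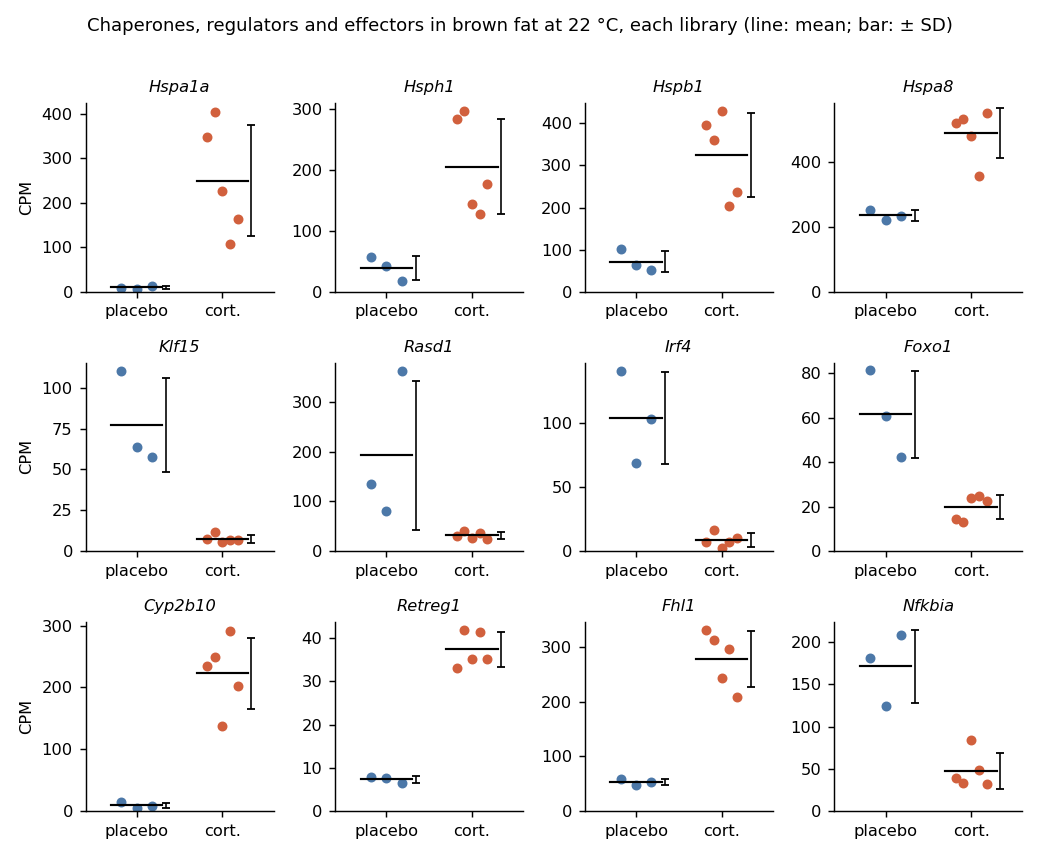
CPM (vertical axes, each from 0) of 12 chaperones, regulators and effectors in the 3 placebo libraries (blue points) and the 5 corticosterone libraries (orange points, "cort.") of brown fat at 22 °C, with the group mean as a line and ± SD as a bar. None of the 12 genes overlaps between the groups.

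Genes of secreted proteins, matrix and signalling were called in both directions. Lum, the matrix proteoglycan lumican, measured 183, 122 and 32.8 CPM with placebo and 6.36, 5.55, 7.56, 21.2 and 25.5 CPM with corticosterone, and fell by 3.09 ± 0.55 SE (adjusted p = 0.00831). Lox, which crosslinks collagen, measured 17.9, 19.2 and 8.45 CPM with placebo and 63.8, 102, 69, 60.8 and 34.2 CPM with corticosterone, and rose by 2.11 ± 0.36 SE (adjusted p = 0.00519). Both were without overlap, and Lox was the 1 gene called of 20 collagens and collagen enzymes, where 0.664% of all genes tested were called. Svep1, a matrix adhesion protein, fell by 1.99 ± 0.34 SE without overlap (adjusted p = 0.00519). The calls of Lox and Svep1 held with each library left out, and that of Lum was lost without placebo library 1 (adjusted p = 0.087).

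Lrrc32 encodes GARP, which tethers latent TGF-beta to the cell surface. It measured 6.62, 3.4 and 6.02 CPM with placebo and 58.7, 127, 54.3, 33.3 and 20.1 CPM with corticosterone, and rose by 3.46 ± 0.69 SE (adjusted p = 0.0172). Tnfrsf12a, the receptor of the cytokine TWEAK, measured 6.9, 10.3 and 10.9 CPM with placebo and 76.3, 29.1, 160.0, 76.1 and 32.8 CPM with corticosterone, and rose by 3.00 ± 0.58 SE (adjusted p = 0.0142). Neither overlapped, although the corticosterone libraries spread widely: library 2 was the highest for Lrrc32 and library 3 for Tnfrsf12a. Ier3, an immediate early gene, rose by 2.52 ± 0.47 SE (adjusted p = 0.0113), and Id3, an inhibitor of helix-loop-helix factors, by 2.14 ± 0.39 SE (adjusted p = 0.00951), each without overlap. The call of Lrrc32 was lost without any 1 placebo library (adjusted p 0.114 at most), those of Tnfrsf12a and Ier3 without placebo library 1 or 2 (0.127 at most), and that of Id3 without placebo library 1 (0.0906).

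Of 18 adipokines and secreted factors, 2 fell, against 0.332% of all genes tested, and 0 rose. The list's median of -1.04 turned to 0.35 without placebo libraries 1 and 2. The median over all genes tested was 0.22 in that fit, against 0.01 in the main fit. Rbp4, the plasma carrier of retinol, measured 546, 818 and 442 CPM with placebo and 156, 162, 211, 196 and 91.4 CPM with corticosterone. It fell by 1.88 ± 0.35 SE without overlap (adjusted p = 0.0113), a call lost without placebo library 2 (0.0839). Retnla, a resistin-like protein, fell by 3.01 ± 0.56 SE (adjusted p = 0.0115), a call lost without placebo library 1 or 2 (0.0787 at most). In Retnla, placebo library 3, at 2.56 CPM, lay just above the highest corticosterone library, at 2.34. Lep, the gene of leptin, was higher in every corticosterone library, at 138, 79.2, 91.6, 150.1 and 60 CPM against 26.3, 29.8 and 3.39 CPM with placebo, but its adjusted p was 0.392. Adipoq, the gene of adiponectin, overlapped between the groups (-1.54 ± 0.57 SE, adjusted p = 0.271).

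Other genes with varied functions also changed. Retreg1, which marks stretches of endoplasmic reticulum for autophagy, measured 7.92, 7.65 and 6.46 CPM with placebo and 33.1, 41.9, 35.1, 41.5 and 35.3 CPM with corticosterone. It rose by 2.34 ± 0.31 SE (adjusted p = 0.000421), and its lowest corticosterone library was 4.19-fold above its highest placebo library. Fhl1, a LIM-domain protein of muscle and other tissues, measured 59.2, 47.1 and 53.2 CPM with placebo and 331, 312, 244, 296 and 208 CPM with corticosterone, and rose by 2.39 ± 0.28 SE (adjusted p = 0.000196). Both calls held with each library left out. S100b, a calcium-binding protein made by brown adipocytes and Schwann cells, measured 19.8, 17 and 23 CPM with placebo and 62.1, 54.6, 69.7, 114 and 122 CPM with corticosterone, and rose by 2.09 ± 0.40 SE (adjusted p = 0.0141), a call lost without placebo library 1 or 2 (0.11 at most). The other 11 genes of a list of Schwann cell and nerve markers that includes S100b summed to 159.4 to 197 CPM with placebo and to 154 to 175 with corticosterone, and overlapped between the groups. The call of S100b was also lost in the joint fit of all depots described below (adjusted p = 0.196). Gpx8, a peroxidase of the endoplasmic reticulum, measured 279, 325 and 125 CPM with placebo and 36.4, 34, 24.5, 65.7 and 58.7 CPM with corticosterone. It fell by 2.47 ± 0.38 SE (adjusted p = 0.00259), and Socs2, a suppressor of growth hormone signalling, fell by 1.91 ± 0.39 SE (adjusted p = 0.0208), both without overlap. The call of Gpx8 held with each library left out, and that of Socs2 was lost without placebo library 1 or 2 or corticosterone library 1 or 2 (0.123 at most).

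The same treatment at 13 °C served to ask which of these changes recurred in other libraries, since the contrasts share none. Both contrasts came from the same fit and used the same estimate of each gene's spread. The calls at 22 and 13 °C are thus not fully independent. In the 10 brown fat libraries from 13 °C (5 with each treatment), 125 of the same 17163 genes (0.728%) passed the test. Of the 114 genes called at 22 °C, 110 had the same direction at 13 °C, against 54.4% of all genes tested, and 43 were called in the same direction at both temperatures (37.7% of the 22 °C calls and 34.4% of the 13 °C calls). None was called in opposite directions. The 43 were 19 genes that rose and 24 that fell, with Arntl, Per1, Per3, Ciart, Dbp, Tef, Nr1d2, Irf4, Klf15, Rasd1, Nfkbia, Hspa1a, Cyp2b10 and Lox among them. Irf4 changed by -3.96 ± 0.58 SE at 13 °C and -3.55 at 22 °C, Dbp by -3.96 ± 0.47 SE and -3.23, and Arntl by 3.28 ± 0.50 SE and 3.65.

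Some genes called at 22 °C had small changes at 13 °C. Retreg1 changed by 0.13 ± 0.24 SE at 13 °C (adjusted p = 0.912), against 2.34 at 22 °C, and Cry1 by 0.62 ± 0.34 SE (adjusted p = 0.571), against 2.73. Rbp4 changed by -0.39 ± 0.31 SE and Bcat2 by -0.14 ± 0.24 SE at 13 °C, against -1.88 and -1.22 at 22 °C. In 96 of the 114 the change was smaller at 13 °C; the genes were chosen by their calls at 22 °C, so this is a description. The test of the difference between the temperatures called no gene (0%, 0 of 17163), with 1098 genes at an unadjusted p under 0.05. The smallest adjusted p was 0.126, for Retreg1, and DESeq2 called 13 genes. None of the changes above was thus shown by edgeR to depend on temperature.

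**Figure D4:**
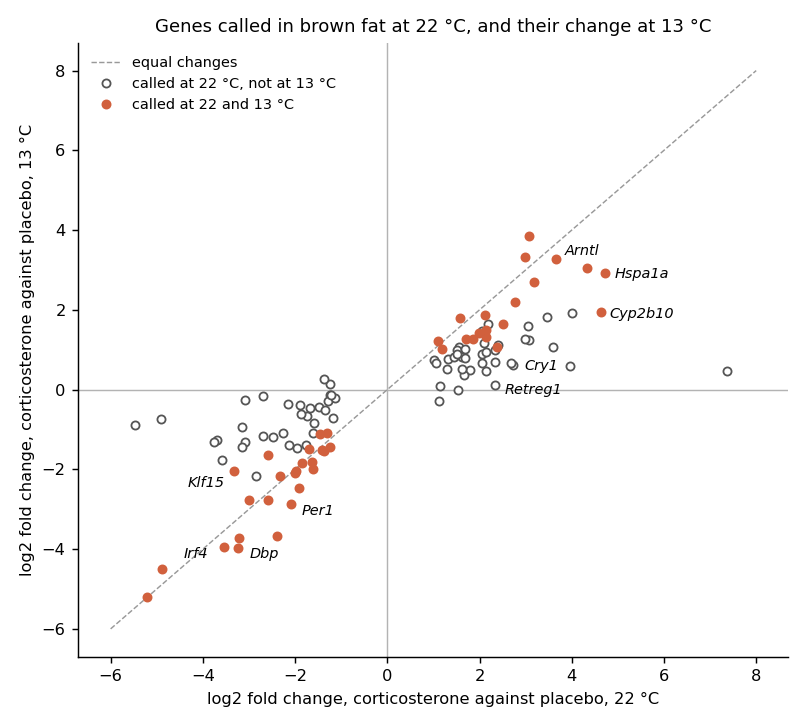
Log2 fold change of the 114 genes called in brown fat at 22 °C (horizontal axis) against their log2 fold change at 13 °C (vertical axis), corticosterone against placebo. Filled points are the 43 genes called at both temperatures, open points those called at 22 °C and not at 13 °C, and the dashed line marks equal changes; 110 of 114 points lie in the quadrants of equal sign.

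White fat from mice under the same treatment at 22 °C was set beside brown fat in a joint fit of all 55 libraries, with 5 corticosterone and 4 placebo libraries in each white depot. In that fit 403 of 22245 genes (1.81%) were called in brown fat, 119 higher and 284 lower, against 1057 (4.75%) in gonadal and 1120 (5.03%) in subcutaneous fat. The placebo group of brown fat was smaller by 1 library, and the numbers of calls were not tested against each other. Of the 114 genes called with brown fat fitted alone, 51 were called in the same direction in gonadal fat and 58 in subcutaneous fat, and none in the opposite direction. As shares of each list, these are 44.7% of the brown and 4.82% of the gonadal calls, and 50.9% of the brown and 5.18% of the subcutaneous calls. The contrasts share no library, but the labels do not say whether the depots came from the same mice. The joint fit also took each gene's spread from all 55 libraries, brown fat included. Clock genes were among the shared calls. Dbp changed by -4.52 in gonadal and -4.73 in subcutaneous fat, Arntl by 3.02 and 3.61, and Per1 by -1.57 and -2.30, and the test of the difference from brown fat called none of the 3.

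A direct test of the difference called 233 of 22245 genes (1.05%) between brown and gonadal fat and 103 (0.463%) between brown and subcutaneous fat. Of the 114 brown fat calls, 17 differed from gonadal and 12 from subcutaneous fat, and 8 from both, Cdkn1c, Foxo1, Hspa1a, Klf15, Lrrc32 and Qsox1 among them. Hspa1a, at 4.73 ± 0.59 SE in brown fat, changed by 0.55 in gonadal and 0.61 in subcutaneous fat, and the differences of 4.19 and 4.14 had adjusted p of 0.00731 and 0.0148. Lrrc32 changed by 0.26 and 0.26 in the white depots, with differences of 3.21 and 3.21 (adjusted p = 0.0126 and 0.0171). These 2 genes rose in brown fat and were not called in either white depot.

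Klf15 fell in all 3 depots, and fell further in brown fat: the change was -1.58 in gonadal and -1.28 in subcutaneous fat, with differences of -1.73 and -2.03 (adjusted p = 0.0492 and 0.0381). Foxo1 changed by 0.36 and -0.02 in the white depots, with differences of -1.99 and -1.61 (adjusted p = 0.00779 and 0.0433). Cdkn1c, a cell cycle inhibitor, at -1.74 ± 0.33 SE in brown fat (adjusted p = 0.0138), changed by 0.51 and 0.33 there, and Qsox1, a sulfhydryl oxidase, at -2.70 ± 0.57 SE in brown fat (adjusted p = 0.0239), by -0.26 and 0.09. The call of Cdkn1c in brown fat held with each library left out, and that of Qsox1 was lost without any 1 of placebo libraries 1 and 2 and corticosterone libraries 1, 2, 4 and 5 (0.181 at most). Rasd1 fell in brown fat and changed by 1.34 in subcutaneous fat, a difference of -3.94 (adjusted p = 0.0148), and by 0.18 in gonadal fat, a difference of -2.77 (adjusted p = 0.0592).

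Other genes were not called with brown fat fitted alone, and their changes there differed from those in at least 1 white depot by the test of the difference. Hspb7, a small heat shock protein, changed by 7.81 in gonadal and 5.62 in subcutaneous fat and measured 0.921, 0.134 and 1.47 CPM with placebo and 0.466, 0.552, 0.905, 4.06 and 0.437 CPM with corticosterone in brown fat. Its difference of -7.20 from gonadal fat had an adjusted p of 0.00629, and that of -5.01 from subcutaneous fat 0.0718. Mt2, a metallothionein, changed by 4.07 in gonadal fat and by -1.13 in brown fat, a difference of -5.19 (adjusted p = 0.00779). Cdkn1a, the cell cycle inhibitor p21, changed by 3.55 in gonadal and by 0.81 in brown fat (difference -2.73, adjusted p = 0.0289). Lpl, at -1.49 in brown fat, changed by 0.10 in gonadal and 0.34 in subcutaneous fat, and both differences passed the test (adjusted p = 0.0364 and 0.0277). These counts of differences depended on single brown fat libraries: leaving out 1 of the 8 gave from 64 (without corticosterone library 2) to 377 (without corticosterone library 4) calls against gonadal fat, and from 7 (without placebo library 1) to 347 (without placebo library 3) against subcutaneous fat.

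**Figure D5:**
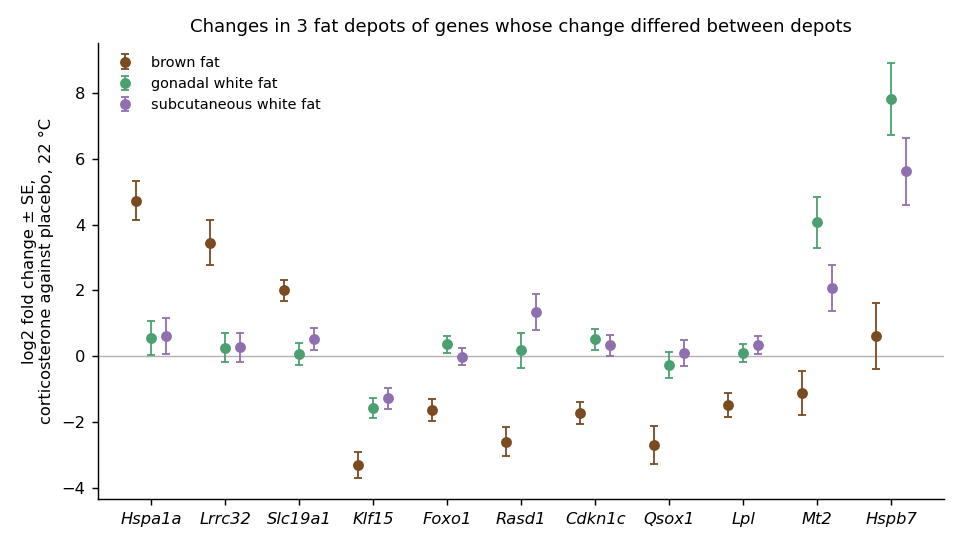
Log2 fold change ± SE (vertical axis), corticosterone against placebo at 22 °C, of 11 genes in brown fat (brown), gonadal white fat (green) and subcutaneous white fat (purple). The 11 genes are ones whose change in brown fat differed from that in 1 or both white depots by the test of the difference; Hspa1a stands at 4.73 in brown fat and at 0.55 and 0.61 in the white depots.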

How the data were processed

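Deposited tables gave whole-number counts per gene that the authors had made; per the submitters' processing notes, FastQC, GSNAP, featureCounts 1.6.3 and mm10 were used, while the annotation release and the strand setting are not named there. All 31933 Ensembl genes of the brown fat table entered; symbols and positions came from GENCODE M21 (17153 of 17163 tested genes matched) and promoters from RefSeq.

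The 18 brown fat libraries were fitted together in edgeR 4.0.16 (filterByExpr with a count of 10 and a total of 15, TMM scaling, robust quasi-likelihood test, 1 mean per group, Benjamini-Hochberg adjustment, R 4.3.3), and the depot differences in all 55 libraries. Fold changes are corticosterone against placebo on the log2 scale; CPM uses TMM library sizes. DESeq2 1.42.0, limma 3.58.1, a replicate block and other alternatives were run. The scripts were tested on simulated data. No 2 of the 8 libraries held identical counts. Libraries of one group correlated at 0.915 to 0.971 (placebo) and 0.929 to 0.968 (corticosterone) in log2(CPM + 0.5). Depth, 18871231 counts or more, limits low genes most, and counting error alone does not cover the spread between libraries (biological coefficient of variation 50.5%).

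The genes named are the 20 largest rises and 20 largest falls without overlap and with a mean of at least 3 in log2 CPM, up to 6 called members a direction of each of 45 gene lists, all clock genes, a fixed set of fat and glucocorticoid genes, and the 6 smallest p of each difference test; the text gives those that fit its groups, and a few results that this rule names are not reported here. The comparison and the lists were chosen with earlier results of these data known.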

Additional observations from a re-analysis of the deposited data

Results flagged for a closer look

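Of 81 sets of 5 corticosterone values checked (75 genes and 6 summed lists), 9 held a library whose gap to its nearest neighbour exceeded 0.71 of the range. Chance flags about 1 in 20 such sets if the values follow a normal distribution. Whether CPM values do was not tested, so the 9 cannot be set against that rate. Corticosterone library 2 stood highest for Klf15 (11.9 CPM), Npas2 (8.95 CPM), Cry1 (111.4 CPM) and Adrb3 (1551 CPM). Library 4 stood highest for Dbp (2.88 CPM) and Hspb7 (4.06 CPM). Library 3 stood highest for the tubulin gene Tubb2a (178.5 CPM) and for the summed skeletal muscle markers (259 CPM). Library 5 stood highest for the summed macrophage markers (5684 CPM). Tubb2a was called higher (2.33 ± 0.53 SE, adjusted p = 0.0386), a call lost without any 1 placebo library or without corticosterone library 1, 3 or 4 (adjusted p 0.145 at most).

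The change with corticosterone at 22 °C differed between brown fat and a white depot in 23 of 150 tests of the genes named, by edgeR's test of the difference with adjustment over all genes. Against gonadal fat, the log2 difference was positive for Hspa1a (4.19), Lrrc32 (3.21), Adrb3 (2.85) and Slc19a1 (1.94). It was negative for Hspb7 (-7.20), Mt2 (-5.19), Cdkn1a (-2.73), Qsox1 (-2.43), Gpx8 (-2.37), Adipoq (-2.28), Cdkn1c (-2.25), Foxo1 (-1.99), Klf15 (-1.73) and Lpl (-1.59). Against subcutaneous fat, it was positive for Hspa1a (4.14) and Lrrc32 (3.21) and negative for Rasd1 (-3.94), Retnla (-3.60), Qsox1 (-2.79), Cdkn1c (-2.07), Klf15 (-2.03), Lpl (-1.83) and Foxo1 (-1.61). No gene named differed between 22 and 13 °C by that test (75 tests).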

How the results depend on the processing

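The 114 calls (57 higher, 57 lower) were 418 in DESeq2 (216 and 202), 971 in limma with weighted libraries (398 and 573), and 65 when only the 8 libraries were fitted (29 and 36). Without placebo library 1 and corticosterone library 5 they were 26 (14 and 12), and without placebo libraries 1 and 2 they were 44 (13 and 31). With all depots in the fit they were 403 (119 and 284). The 2 alternatives that left out a pair of libraries were chosen after seeing the data. Leaving out 1 library gave 42 (without placebo library 1) to 188 (without placebo library 3), with 20 to 61 higher and 22 to 128 lower; leaving out placebo library 2 or corticosterone library 1 or 2 gave 59, 55 and 74. The differences from gonadal fat were 918 with DESeq2, 137 with no filter and 64 to 377 with 1 library left out, those from subcutaneous fat 375, 44 and 7 to 347, and those between temperatures 13 with DESeq2 and 0 to 0. The cause of these differences was not tested. With a replicate block the counts were 98 (56 and 42), 176, 104 and 0. Same-numbered libraries deviated with correlations of -0.18, 0.09 and 0.50, and differently numbered ones with -0.44 to 0.38. So few pairs cannot decide whether the numbers pair the libraries.

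Of 43 called genes that the text describes, none reversed under any of 17 alternatives, and 8 kept their call under all of them; 21 kept it with each library left out. With all depots in the fit, S100b lost its call, and Klf9, Npas2, Nfil3, Lpl and Adipoq gained one. In DESeq2, Klf9, Npas2, Nfil3, Elovl3, Lpl and Pdk4 gained a call. In weighted limma the same genes gained one, as did Bhlhe40, Bhlhe41 and Adipoq. Some of these also gained a call in other alternatives. Reversed signs, all of genes not called, were: without placebo libraries 1 and 2, Nr3c1 0.64, Rora 0.43, Ppargc1a 0.29, Adipoq 0.66 and Hspb7 -0.20; in weighted limma, Zbtb16 0.68, Cry2 -0.067 and Ucp1 0.40; without placebo library 3, Zbtb16 0.80 and Ucp1 0.58; without placebo library 1, Cry2 -0.025 and Ppargc1a 0.15; without corticosterone library 2, Cry2 -0.25; without corticosterone library 4, Hspb7 -0.51; with the replicate block, Hspb7 -0.14. With 1 library left out, the ranges of those that turned were -0.50 to 0.80 for Zbtb16, -0.25 to 0.33 for Cry2, -1.22 to 0.58 for Ucp1, -0.78 to 0.15 for Ppargc1a and -0.51 to 1.24 for Hspb7.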

Other observations

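The lists below held 0 or 1 call each, where 0.664% of all genes tested were called. At that share, no call in so short a list is no result about its members. Of 12 Krüppel-like factor genes tested, Klf15 fell and no other was called, and of 17 growth arrest and p53 target genes, Cdkn1c fell and none rose. None of the 16 ATF4 stress and one-carbon genes, 16 endothelial markers, 14 adipose progenitor markers or 18 cell cycle genes was called. The median log2 fold change of the 16 immediate early genes was 0.56, with 1 member called higher (Ier3); it was -0.38 without placebo libraries 1 and 2 and 2.06 without placebo library 3. The cell cycle median of 1.58 was 0.61 without corticosterone library 5, which held 109 summed CPM of these genes against 20.1 to 44.0 in the other 7 libraries.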
